A study of Mus musculus with 2 samples.

Results

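The 35 genes described here encode aminoacyl-tRNA synthetases, 20 of them cytosolic and 15 mitochondrial, and they were taken by symbol from a named list out of 55450 genes with a symbol. Their RNA was read in ribosomal RNA-depleted total RNA of the nucleoplasm, the soluble part of the nucleus, in macrophages derived from C57BL/6J mouse bone marrow. These cells were given Lipid A, the part of bacterial lipopolysaccharide that Tlr4 senses, at 100 ng/ml for 120 min. The series holds 1 group of 2 libraries, biological replicates 1 and 2 with the same donor entry, made from 1 µg and 500 ng of RNA. The amount of RNA and the replicate cannot be told apart. No unstimulated culture was analysed here, so the levels below say nothing of induction and no groups could be tested against each other.

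An aminoacyl-tRNA synthetase joins an amino acid to its tRNA, and the ribosome can only use tRNA charged in this way. Cells keep a set of enzymes for the cytosol and a set for the mitochondrion, both encoded in the nucleus, and several cytosolic enzymes sit together in the multisynthetase complex. Wars, the cytosolic tryptophan enzyme, is known for its induction by interferon gamma. Many of the cytosolic genes are known targets of Atf4, the transcription factor of the amino acid response.

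The gene tables held 14165942 counts in replicate 1 and 16327044 in replicate 2 over genes with a symbol. The 35 synthetase genes took 8530 counts in replicate 1, or 0.0818% of the counts of nuclear-encoded protein-coding genes (95% Wilson interval 0.0801% to 0.0836%). They took 8305 counts in replicate 2, or 0.0757% (0.0741% to 0.0773%). Single members held between 17 and 698 counts, and 25 of the 35 had at least 100 counts in both libraries. All 7 macrophage markers examined reached 1 TPM (a transcript abundance per effective length, scaled to a fixed total) in both libraries and all 7 stood above the median gene in replicate 2, with a median relative log2 difference of 1.43. The stromal markers went the other way, with Col1a1 at 1845 counts in replicate 1 and 8 in replicate 2. RNA encoded by the mitochondrial genome took 0.430% of counts in replicate 1 and 8.72% in replicate 2. In such bulk RNA, fewer cells of a type and less RNA per cell cannot be told apart, and the part of these differences in the values below was not tested.

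The cytosolic enzymes were read at higher levels than the mitochondrial ones. All 20 cytosolic genes and 11 of the 15 mitochondrial genes reached 1 TPM in both libraries, 31 of 35 in all, where 40.5% of all nuclear-encoded protein-coding genes did. The median level of the cytosolic genes was 9.38 TPM in replicate 1 and 6.69 TPM in replicate 2, and that of the mitochondrial genes was 3.30 and 2.01 TPM. In both libraries, then, the cytosolic median was the higher of the pair, at 2.84 and 3.33 times the mitochondrial one. In the read-based table, where transcripts were quantified from the reads themselves, it was 1.89 and 1.80 times. The summed TPM of the cytosolic genes was 3.38 times that of the mitochondrial genes in replicate 1 and 3.66 times in replicate 2 (mean 3.52 ± 0.195, SD, n = 2). For comparison, the median of the 8886 protein-coding genes detected in both libraries was 10.7 TPM in replicate 1 and 7.35 TPM in replicate 2, above the cytosolic median in each.

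**Figure D1:**
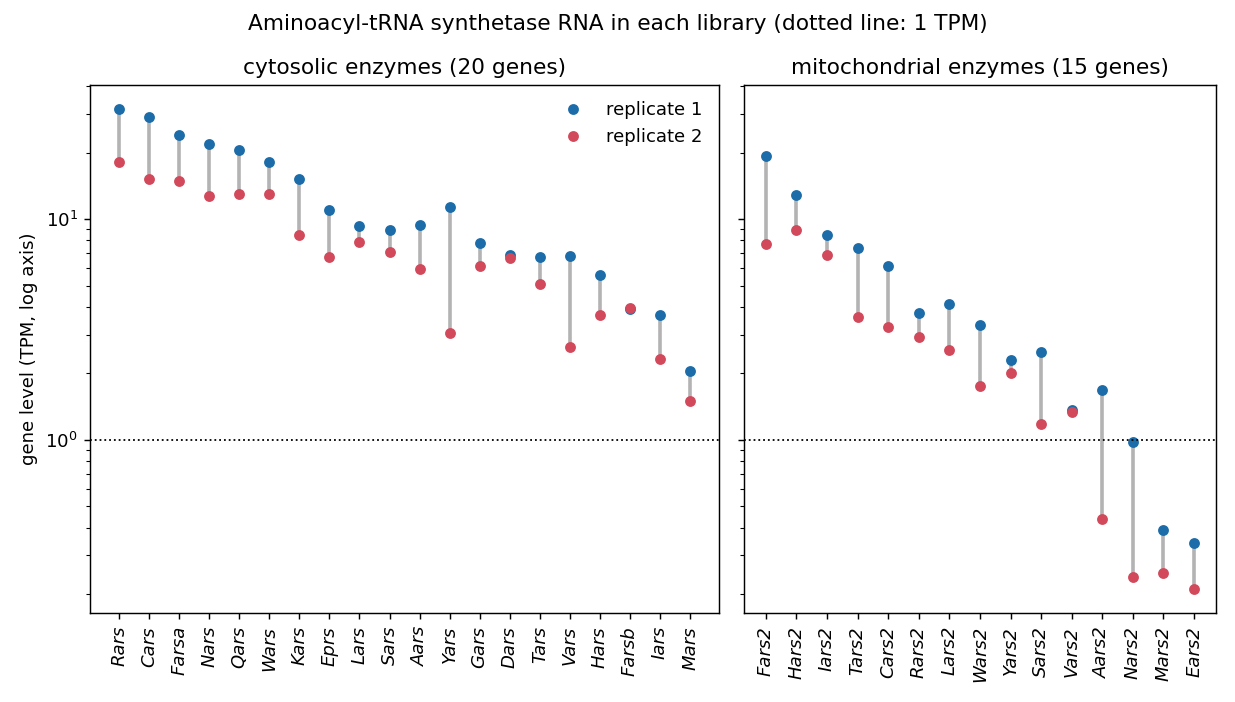
Level of each synthetase gene (TPM, log axis) in replicate 1 and replicate 2, with cytosolic genes on the left and mitochondrial genes on the right, ordered by mean. Grey lines join the 2 libraries of a gene and the dotted line marks 1 TPM. All 20 cytosolic genes lie above the line in both libraries, and 4 mitochondrial genes lie below it in at least 1 library.

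Among the cytosolic enzymes, Rars, the arginine enzyme of the multisynthetase complex, was highest at 31.5 TPM in replicate 1 and 18.1 TPM in replicate 2 (mean 24.8 ± 9.51, SD, n = 2). Cars, which charges cysteine, followed at 29.1 and 15.2 TPM. Farsa, the alpha subunit of the phenylalanine enzyme, stood at 24.0 and 14.95 TPM. These genes kept ranks 1 to 3 in both libraries of the gene tables. In the read-based table Farsa was rank 5 in replicate 1 at 20.9 TPM, behind Yars (26.3 TPM) and Kars (23.6 TPM) as well, and rank 3 in replicate 2. Nars, the asparagine enzyme, held 21.9 TPM in replicate 1 and 12.7 TPM in replicate 2. Qars, the glutamine enzyme, held 20.7 and 13.1 TPM. Nars, Qars and Wars changed places between the libraries, so their order is not resolved. Of all detected protein-coding genes, 75.9% had a lower mean level than Rars.

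The lowest cytosolic genes by mean were Mars, Iars and Farsb. Mars, the methionine enzyme that also charges the initiator tRNA, was lowest in both libraries at 2.06 and 1.5 TPM. Iars, the isoleucine enzyme, read 3.68 and 2.32 TPM. Farsb, the beta subunit that pairs with Farsa in 1 enzyme, read 3.92 and 3.95 TPM and was the sole member whose TPM was not lower in replicate 2, where Vars, Yars and Hars lay below it. From Mars to Rars, the cytosolic genes thus spanned a wide range in a single set of enzymes that all serve the same step. Mars overlaps Ddit3, the stress factor known as CHOP, on the opposite strand over 68 bases, and Iars hosts the small nucleolar RNA gene Gm25394, listed at 30 and 3 counts. Whether counting used strand is not given in the sources used here, so reads of such overlaps cannot be assigned with certainty.

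Genes of the multisynthetase complex and the other cytosolic genes had median levels close to each other. The 8 genes of the complex (Dars, Eprs, Iars, Kars, Lars, Mars, Qars and Rars) had median levels of 10.2 and 7.31 TPM in replicates 1 and 2. The 12 others had medians of 9.19 and 6.05 TPM. The ratio of the medians was 1.11 in replicate 1 and 1.21 in replicate 2, and it was 0.962 and 0.978 when only protein-coding transcripts were counted. The complex held both the highest gene, Rars, and the lowest, Mars. Of its 3 scaffold genes, Aimp1 read 8.39 and 5.39 TPM, Eef1e1 read 5.27 and 2.78 TPM, and Aimp2 stayed under the detection level at 0.84 and 0.51 TPM.

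Wars, on chromosome 12 (108860030 to 108894174, minus strand, mm10), read 18.1 TPM from 466 counts in replicate 1 and 12.9 TPM from 515 counts in replicate 2 (mean 15.5 ± 3.62, SD, n = 2). It ranked 6 of 20 and 5 of 20 among the cytosolic genes. Its level was 1.93 times the median of the other 19 cytosolic genes in replicate 1 and 1.94 times in replicate 2. Rars, Cars, Farsa and Qars exceeded it in both libraries, so the interferon-linked enzyme was in the upper part of the set without leading it. Wars stood higher when only transcripts annotated as protein-coding were counted, at 11.5 and 8.53 TPM, which is 2.39 and 2.42 times the median of the others. That put it at rank 3 of 20 in each library and at rank 2 by mean, while the protein-coding values of the read-based table put it at ranks 7 and 6. In the read-based table its ratio to that median was 2.30 and 2.08 over all transcripts, and 1.59 and 2.05 over protein-coding transcripts.

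A pair of protein-coding Wars transcripts was read at like levels in the alignment-based table. Wars-201 stood at 6.35 TPM in replicate 1 and 4.15 TPM in replicate 2, and Wars-205 at 5.18 and 4.38 TPM, so their order changed between the libraries. In the read-based table Wars-205 was the higher in both, at 3.40 and 3.86 TPM beside 1.61 and 1.03 TPM for Wars-201. Both encode 475 codons, and Wars-204, which encodes 481, was listed at 0. Wars2, the mitochondrial tryptophan enzyme, read 3.30 and 1.76 TPM, so that Wars exceeded it 5.47-fold and 7.35-fold. Wdr25 lies opposite to Wars with an overlap of 544 bases and held 53 and 42 counts.

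Most genes of an interferon-linked comparison list, though not Cxcl9 and Ido1, stood far above Wars. In a comparison list of 10 interferon-linked genes, 9 reached the detection level, and the median over all 10 was 211 TPM in the first library and 218 TPM in the second. Rsad2, an antiviral enzyme, read 2012 and 1693 TPM. Cxcl10, a chemokine, read 781 and 982 TPM, and Gbp5, a guanylate-binding protein, read 945 and 687 TPM. Ido1, which degrades tryptophan, was the lowest of the list at 0 counts in both gene tables, which allows up to 3 counts in each. The read-based table gave it 0.547 TPM in replicate 1 and 0.132 TPM in replicate 2. Wars was thus read at a level nearer to the other synthetases than to the middle of that list.

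The mitochondrial enzymes were led by Fars2, the phenylalanine enzyme, at 19.4 TPM in replicate 1 and 7.68 TPM in replicate 2. Hars2, the histidine enzyme, read 12.9 and 8.91 TPM. Iars2, the isoleucine enzyme, read 8.49 and 6.89 TPM. Fars2 and Hars2 exchanged the first rank between the libraries, and Iars2 was rank 3 in both. Tars2, for threonine, read 7.39 and 3.60 TPM, and Cars2, for cysteine, read 6.16 and 3.24 TPM. The remaining 10 genes lay between 4.13 and 0.34 TPM in replicate 1.

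The 4 mitochondrial genes that missed the detection level were Aars2, Nars2, Mars2 and Ears2. Aars2, the alanine enzyme, read 1.68 TPM from 58 counts in replicate 1 and 0.44 TPM from 29 counts in replicate 2, so it passed in the first library only. Vars2, the valine enzyme, was the lowest by mean among the genes that passed, at 1.37 and 1.33 TPM from 29 and 32 counts. Nars2, for asparagine, read 0.98 and 0.24 TPM. Mars2, for methionine, read 0.39 and 0.25 TPM although it held 61 and 58 counts, since its single annotated transcript is 11294 bases long. Ears2, for glutamate, read 0.34 and 0.21 TPM from 17 counts in each library. Counts were present for every one of the 35 genes in both libraries, so no member was at 0.

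Enzymes for the same amino acid could be set side by side in 14 pairs, and in the gene tables the cytosolic gene was higher in both libraries in 11 of them. The widest gaps were those of Eprs, which charges glutamate and proline, over Ears2 (32.5-fold and 32.0-fold) and of Nars over Nars2 (22.4-fold and 52.9-fold). Cars exceeded Cars2 by nearly the same ratio in each library, 4.72 and 4.70. The exceptions were histidine, isoleucine and threonine. Hars read 5.60 and 3.69 TPM, which was 0.434 and 0.414 times Hars2. Iars was 0.433 and 0.337 times Iars2. Tars was 0.913 times Tars2 in replicate 1 and 1.41 times in replicate 2, so the order of that pair is not resolved. In the read-based table leucine was a further exception. There Lars read 8.79 TPM against 12.2 TPM for Lars2 in replicate 1, and 7.19 against 3.93 TPM in replicate 2. Hars and Hars2 are neighbours that point away from each other on chromosome 18 and overlap by 198 bases, and Iars2 overlaps Rab3gap2 by 2034 bases on the opposite strand.

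Counting only protein-coding transcripts left isoleucine as it was and turned histidine around. Hars then exceeded Hars2 1.29-fold in replicate 1 and 1.54-fold in replicate 2. Iars stayed at 0.462 and 0.445 times Iars2. Tars fell below Tars2 in both libraries on this scale, at 0.538 and 0.746. The order of cytosolic and mitochondrial enzyme in the histidine pair therefore depended on which transcripts were counted. For threonine the order over all transcripts depended on the table. In the read-based table Tars was below Tars2 over all transcripts, at 5.85 against 9.77 TPM in replicate 1 and 4.36 against 4.99 TPM in replicate 2. It was also below Tars2 there over protein-coding transcripts in both libraries.

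Nuclear RNA can hold unfinished transcripts, and for the synthetases much of the signal was assigned to transcripts outside the protein_coding class. That class took 47.5% of the members' summed TPM in replicate 1 and 53.6% in replicate 2, and transcripts annotated as retained_intron took 42.5% and 36.7%. Among all 8886 detected protein-coding genes the retained_intron share was 32.1% and 25.5%. Only 7452 of those genes have any transcript annotated outside the protein_coding class, while 33 of the 35 members have a retained_intron transcript. The part of this difference in annotation in the shares was not tested. In estimated counts, which are not divided by transcript length, the members' protein_coding share was 63.9% and 68.6%. In the read-based table it was 33.5% and 40.7% of TPM. The class of most of the signal thus depended on the table and the unit, while retained_intron was the larger of the remaining classes in each.

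Of the 31 detected members, 9 had at least 50% of their TPM outside the protein_coding class in both libraries, against 29.0% of all detected protein-coding genes that have such a transcript. This share of members, 29.0%, is that of the background. The read-based table put 17 of the 31 at or above that level, beside a background of 45.9%, and 8 members were there in both tables. At 90% or more in both libraries stood 2 members, Farsa and Qars, beside a background of 1.66%. The median share was 40.1% in replicate 1 and 33.6% in replicate 2 over cytosolic genes, and 49.7% and 48.9% over detected mitochondrial genes. Over all 31 detected members it was 42.5% and 34.1%, beside 43.5% and 36.6% over the 7452 detected protein-coding genes with such a transcript. By this measure the members as a set were near the background, with the cytosolic median below it and the mitochondrial median above it. The share was lower in replicate 2 for 18 of the 31 members, beside 65.3% of all such genes.

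**Figure D2:**
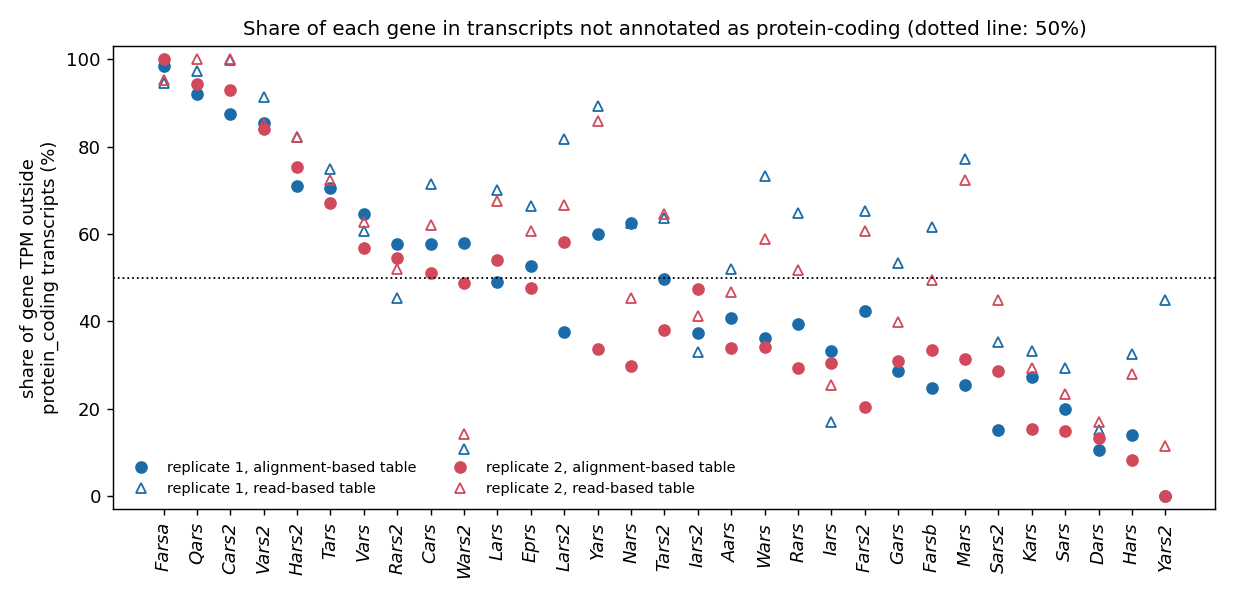
Share of each detected gene's TPM in transcripts outside the protein_coding class (percent), in the alignment-based table (filled circles) and the read-based table (open triangles), for replicates 1 and 2. Genes are ordered by the mean of the filled circles and the dotted line marks 50%. The 8 genes Farsa, Qars, Cars2, Vars2, Hars2, Tars, Vars and Cars lie above the line in all 4 values, while the read-based values lie well above the others for Yars, Wars and Mars and well below them for Wars2.

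Farsa was nearly all outside the protein_coding class, at 98.4% of TPM in replicate 1 and 100% in replicate 2, and at 94.5% and 95.2% in the read-based table. In counts, 689 of 698 were outside it in replicate 1 (98.7%, 95% Wilson interval 97.6% to 99.3%) and 606 of 606 in replicate 2. The split of counts between transcripts is itself an estimate, which the interval does not cover. The read-based table put 96.0% and 96.2% of Farsa counts outside the class. The transcript Farsa-205, annotated as retained_intron, carried 10.1 and 5.24 TPM, Farsa-203 carried 6.29 and 4.55 TPM, and Farsa-204 carried 4.06 and 3.34 TPM. With protein-coding transcripts alone, Farsa moved from rank 3 to rank 20 of the 20 cytosolic genes. The order of the 2 subunits of the phenylalanine enzyme turned with it. Over all transcripts Farsa was 6.12 and 3.78 times Farsb, and over protein-coding transcripts it was 0.132 times Farsb in replicate 1 and was listed at 0 in replicate 2. The read-based table gave 3.94 and 2.64 over all transcripts, and 0.563 and 0.252 over protein-coding ones.

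Qars followed at 91.9% in replicate 1 and 94.3% in replicate 2, with 12 of its 34 annotated transcripts in the retained_intron class. Qars-218, one of them, carried 2.95 and 0.87 TPM. Cars2 stood at 87.3% and 92.9% of TPM, and at 99.8% and 99.9% in the read-based table. Vars2 read 85.4% and 84.1%. The low end was held by Yars2, Hars and Dars. Yars2, the mitochondrial tyrosine enzyme, had 0% in both libraries, yet 44.9% and 11.5% in the read-based table. Hars had 14.1% and 8.40%, and Dars, the aspartate enzyme of the complex, had 10.6% and 13.4%. Wars had 36.1% of TPM and 10.1% of counts outside the class in replicate 1, and 34.1% and 9.32% in replicate 2, and the read-based table gave 73.2% and 58.8% of TPM.

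The introns that these transcripts keep could be read from the annotation. In 18 of the 35 genes, 55 introns of protein-coding transcripts, each a distinct pair of start and end, lie whole within an exon of a retained_intron transcript. Introns that share an end or overlap are counted separately. Their lengths ran from 72 to 2431 bases with a median of 137 bases, and all 55 end in AG while 54 start with GT and 1 in Qars starts with GC. Farsa and Qars, the genes with the highest shares, have 3 and 12 of them, and none was found in Farsa-205, the most abundant Farsa transcript. The shortest intron of each is shown as an example of sequence that certain retained_intron transcripts hold and protein-coding ones remove. Both sequences come from the GENCODE transcripts on mm10, 5′ to 3′ on the plus strand, lie between coding exons, and have the first and last pair of bases of the intron in capitals. The Farsa intron shown is 101 bases long at chr8:84867649-84867749 and is kept in Farsa-203, while Farsa-204 keeps another of 137 bases. The Qars intron shown is 73 bases long at chr9:108515034-108515106 and is kept in Qars-218, Qars-205 and Qars-213.
Farsa intron: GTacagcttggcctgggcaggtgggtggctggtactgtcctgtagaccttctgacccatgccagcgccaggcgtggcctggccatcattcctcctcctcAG
Qars intron: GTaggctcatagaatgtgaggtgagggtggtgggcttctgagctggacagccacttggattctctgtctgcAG
The Farsa intron has a second annotated end 3 bases downstream, at 84867752, and its last bases with the first 3 exon bases beyond each end are shown with the AG in capitals.
Farsa nearer end: atcattcctcctcctcAGaag
Farsa farther end: attcctcctcctcagaAGccg
The protein-coding transcripts Farsa-201 and Farsa-202 encode 508 and 507 codons.

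**Figure D3:**
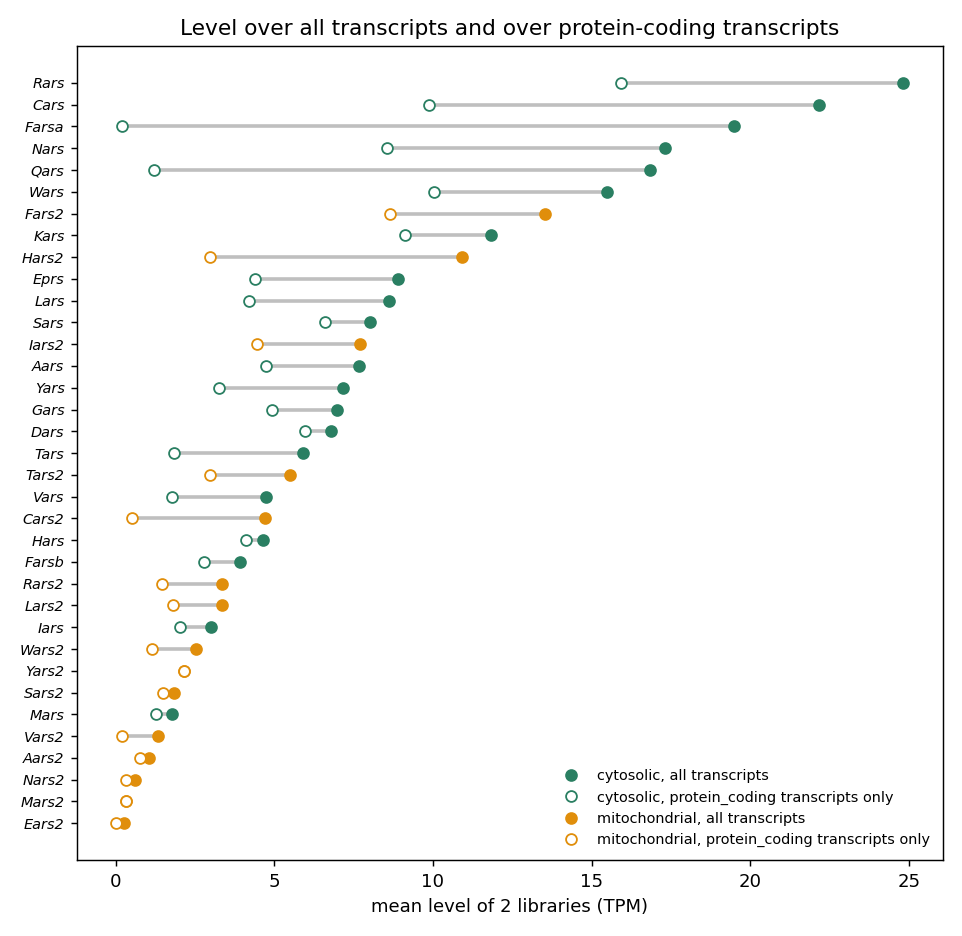
Mean level of the 2 libraries (TPM) of each synthetase gene over all its transcripts (filled) and over protein_coding transcripts only (open), with cytosolic genes in green and mitochondrial genes in orange. The grey line is the part outside the class. It spans nearly the whole level of Farsa and Qars, while Rars stays first on either measure.

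Kars encodes both the cytosolic and the mitochondrial lysine enzyme, by alternative splicing, and both forms were read. Kars-201, with 595 codons, carried 9.41 TPM in replicate 1 and 6.31 TPM in replicate 2. The longer Kars-202, with 624 codons, carried 1.62 and 0.88 TPM. Kars-201 was the higher in both libraries. Kars-206, which keeps an intron of 670 bases, carried 3.44 and 1.30 TPM. No mitochondrial glycine gene exists beside Gars, which serves both compartments and read 7.82 and 6.14 TPM.

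Differences between the 2 libraries were mostly shared with other genes. The TPM of 34 of the 35 members was lower in replicate 2, and so was that of the median gene, whose log2 ratio of replicate 2 to replicate 1 was -0.58 over the 12647 genes whose mean TPM was 1 or higher. Relative to that median, 18 of the 35 members were above and 16 below, with Aars, the alanine enzyme, at it. The background here is the 9548 nuclear-encoded protein-coding genes with a mean TPM of 1 or higher, of which 55.7% were above. It leaves out lower genes, while the 35 members include 3 with a mean TPM below 1. A single member, Yars, passed 2-fold, where 7.17% of the background genes did. Yars was lower in replicate 2, as were 1.73% of the background genes past 2-fold, and no member was 2-fold higher there, beside 5.45%. Yars, the tyrosine enzyme on chromosome 4, read 11.3 TPM from 279 counts in replicate 1 and 3.05 TPM from 150 counts in replicate 2, a relative log2 ratio of -1.02. The read-based table gave 26.3 and 9.16 TPM and a relative log2 ratio of -0.80, and scaling of counts gave -0.85 by TMM and -0.86 by DESeq2, so the 2-fold level was not reached on those measures.

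The next largest differences towards replicate 1 were those of Fars2, with a relative log2 ratio of -0.65, and of Vars, the valine enzyme, which read 6.81 and 2.64 TPM with a ratio of -0.52. Towards replicate 2 stood Farsb at 0.59, Vars2 at 0.56 and Dars at 0.53. Dars read 6.91 and 6.65 TPM, but its counts were 137 and 276, and TMM scaling of counts put its log2 ratio at 1.04. At the transcript level, the full-length Dars-201 read 3.71 and 5.76 TPM, and the short Dars-202 read 2.47 TPM in replicate 1 and was listed at 0 in replicate 2, where the read-based table gave 4.41 and 1.43 TPM. Wars stood at 0.13, within the SD of 0.56 over all protein-coding genes with a mean TPM of 1 or higher.

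**Figure D4:**
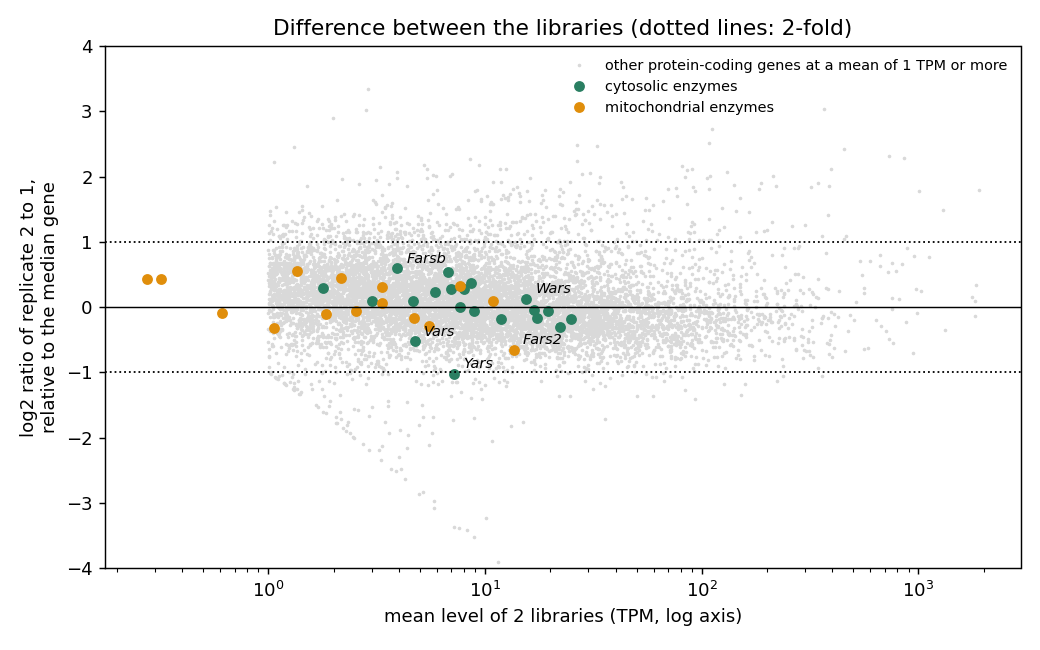
Log2 ratio of replicate 2 to replicate 1, relative to the median gene, against the mean level of the 2 libraries (TPM, log axis), for synthetase genes (coloured) and for other protein-coding genes with a mean TPM of 1 or higher (grey, 2 of which lie outside the axis). Dotted lines mark 2-fold. Yars alone among the synthetase genes lies past a dotted line, at -1.02.

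The 2 kinds of table gave like levels for most members and different ones for a few. Read-based counts were higher in total, at 21039284 in replicate 1 and 27514005 in replicate 2, beside 14165942 and 16327044 in the gene tables. Lars2, the mitochondrial leucine enzyme, held 158 counts in replicate 1 of the alignment-based table and 1074 in the read-based one, and 140 and 529 in replicate 2. Yars held 279 and 1096 counts in replicate 1, and 150 and 830 in replicate 2. Cars2 held 115 and 536 counts in replicate 1, and 105 and 588 in replicate 2. These 3 genes had the largest ratios of read-based to alignment-based counts in both libraries, and in TPM the order of such ratios was another, with Rars2 at 3.77 TPM against 8.46 TPM in replicate 1 and Wars2 at 1.76 TPM against 3.29 TPM in replicate 2. The cause of the difference was not tested.

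Genes that act beside the synthetases were read as follows. Of the genes for the cytosolic elongation factor that carries charged tRNA to the ribosome and for its nucleotide exchange factor, all 4 were detected, from the carrier Eef1a1 at 296 and 421 TPM, over the exchange factor subunits Eef1g at 35.5 and 28.4 TPM and Eef1b2 at 31.7 and 32.6 TPM, to Eef1d at 8.83 and 6.33 TPM. All 8 mitochondrial partners were detected, led by Gfm2 (12.9 and 8.99 TPM) and the elongation factors Gfm1 (8.07 and 5.48 TPM) and Tufm (7.49 and 4.11 TPM). The lowest by mean was Qrsl1, at 1.03 and 1.05 TPM beside Gatb at 1.14 and 1.04 TPM, a subunit of the amidotransferase by which mitochondria make glutaminyl-tRNA in place of a glutamine synthetase. Of 4 genes of tRNA export and processing, all were detected, with Ssb (26.4 and 25.6 TPM), Trnt1, which adds the 3′ end that synthetases charge (25.4 and 12.8 TPM), the tRNA exporter Xpot (11.4 and 8.55 TPM), and Elac2 (2.00 and 1.39 TPM). Ankrd16, a partner of the alanine enzyme in editing, led the 7 synthetase-like and editing genes at 37.8 and 28.1 TPM, of which 96.4% and 94.3% lay outside the protein_coding class. Yrdc read 9.09 and 6.49 TPM, Prorsd1 9.08 and 4.50 TPM, and the lowest by mean, Dtd1, 0.62 and 0.42 TPM, with Tarsl2 next to it at 0.57 and 0.48 TPM.

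The genes of the amino acid response were read unevenly. Of 11 stress kinases and factors matched in the files, 9 were detected, and the highest were the kinase Eif2ak2, itself an interferon-induced gene, at 226 and 121 TPM, the factor Atf4 at 42.0 and 28.2 TPM, and Gcn1l1, which activates the kinase that senses uncharged tRNA, at 23.6 and 10.3 TPM. Trib3 was lowest at 0.59 and 0.08 TPM. Of 12 response targets other than synthetases, 5 were detected, with the transporter chain Slc3a2 at 105 and 126 TPM, the cystine transporter Slc7a11 at 10.8 and 5.14 TPM and the serine synthesis enzyme Psat1 at 5.78 and 1.95 TPM. Chac1 was lowest, with 2 counts in replicate 1 and 0 in replicate 2, and Asns, the asparagine synthetase, read 0.96 and 0.72 TPM. Of all nuclear-encoded protein-coding genes, 40.5% reached the detection level, so 5 of 12 is near the share of genes at large. All 20 cytosolic synthetase genes were detected, and not all of these are known as targets.

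Promoter sequence was available from RefSeq on GRCm38.p6 for 27 of the 35 genes, as windows of 250 bases before to 50 after the start, with Mars under the symbol Mars1. Cars, Hars, Lars, Nars, Rars, Vars, Wars and Hars2 had no entry. Short motifs were searched on both strands. A member was counted once if any of its windows held the motif, while the percentages are over single windows, so the units differ. TGATGNAA, the core shared by C/EBP and ATF composite elements, was in 5 of the 27 genes (Aars, Gars, Iars, Tars and Yars) and in 3.97% of all 32851 windows. CACGTG, the E-box, was in 5 genes (Aars, Ears2, Farsb, Iars and Tars) and in 7.15% of all windows. The core of the interferon-stimulated response element was in 1 gene (Qars) and in 3.44% of all windows, and the NRF1 core was in 0 genes and in 0.971% of all windows. A match describes letters only and is not a bound site.

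All 5 genes with TGATGNAA are among the cytosolic members, of which Gars serves both compartments. The genes without a window are cytosolic members too, except Hars2. The matches of the 5 genes are shown with 8 bases on either side because the shared letters can then be compared. Each is written 5′ to 3′ in the direction of the motif, which is in capitals, and no match overlapped one to another motif. Aars has matches at chr8:111033722-111033745 (minus strand) and chr8:111033843-111033866 (minus strand). Gars has one at chr6:55037963-55037986 (minus strand), Iars at chr13:49682129-49682152 (minus strand), Tars at chr15:11399658-11399681 (plus strand) and Yars at chr4:129189898-129189921 (plus strand).
Aars upstream match: ggctcggcTGATGCAAtgctcaag
Aars downstream match: gagcgctcTGATGAAAagtgaccc
Gars match: ccggtgcaTGATGAAAtagcgcag
Iars match: tctggaggTGATGCAAtactgaca
Tars match: taaccagcTGATGCAAcgggactc
Yars match: agctcagcTGATGCAAcccgacgg
The letter N of the motif was C in 4 of the 6 matches and A in 2. Read in the direction of the gene instead, 3 of the 6 matches have their first base within 10 bases after the RefSeq start. The levels of these genes ran from Iars at 3.68 and 2.32 TPM to Aars at 9.41 and 5.95 TPM and Yars at 11.3 and 3.05 TPM.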

How the data were processed

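The labels give 1 group of 2 libraries, numbered as biological replicates, so values are per library, with mean and SD (n = 2), and no test between groups was run. Per library, the authors deposited 3 tables: genes and transcripts quantified from a transcriptome alignment, and transcripts quantified from the reads themselves (here the read-based table), all on mm10 with annotation M21, per the labels' accompanying notes. Which aligner and tools were used, and whether strand was counted, is not given in the sources used here. Expected counts, per the file headers, are estimates and can be fractions. The deposited TPM values take effective length into account and share a fixed total, per the file headers. FPKM, as deposited by the authors, entered only as an alternative. The deposited posterior SD of each gene's count, a score of how surely reads were assigned to the gene, was at most 6.56 counts for a member.

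The members and lists were chosen with earlier results of these data known. Detection required 1 TPM in each library. The ratio between replicates is the difference of log2(TPM + 1), replicate 2 minus replicate 1, less the median over genes whose mean TPM was 1 or higher, and 2-fold is the level called. Adding 1 shrinks the ratios of low genes. Transcripts outside the protein_coding class are those annotated as retained_intron, nonsense_mediated_decay or processed_transcript, and nonsense_mediated_decay transcripts do carry a reading frame. Wilson intervals cover counting error only. They leave out error in splitting a gene's counts between its transcripts, and PCR copies of a molecule cannot be told apart here. Genes named with values are Wars, the extremes of each class by level, share and ratio, those next to 1 TPM, and of each list the 3 highest and the lowest. Other genes (Col1a1, Asns, and members named for their overlaps, tables, pairs, transcripts or motifs) were chosen after their values were seen. A comparison of protein sequences was planned and not run. Results for a further motif and for mitochondrial enzymes outside the list of members are not reported here. Python 3.11.15, pandas 2.3.3, numpy 2.4.6, matplotlib 3.10.9, and, for alternative scaling of rounded counts, edgeR 4.0.16 and DESeq2 1.42.0 in R 4.3.3 were used.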

Additional observations from a re-analysis of the deposited data

How the results depend on the processing

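No paired analysis was possible because the libraries form 1 group. With 17 to 698 counts per member, the order of neighbouring genes is not resolved. The cytosolic median (main value 7.85 TPM) ran from 6.69 to 9.38 when a replicate was left out, was 4.29 over protein-coding transcripts only (an alternative chosen after seeing the data) and 31.1 when rescaled to the protein-coding total. The mitochondrial median (2.53) ran from 2.01 to 3.30, and was 3.88 in the read-based table, 9.78 rescaled and 1.46 over protein-coding transcripts. The ratio of summed levels (3.52) ran from 3.38 to 3.66 and was 3.13 in the read-based table. The Wars ratio (1.94) ran from 1.93 to 1.94 and was 2.19 in the read-based table and 2.40 over protein-coding transcripts. Detection (31 members) ran from 31 to 32 and was 17 at 5 TPM. The median log2 ratio between replicates was 0.044 for cytosolic members and -0.23 with no filter on low genes, which moves the centre; for mitochondrial members it was 0.056, and -0.092 by TMM, -0.10 by DESeq2, -0.22 with no filter and -0.11 in the read-based table, so its sign is not settled. The Wars log2 ratio was 0.13, and -0.14 with no filter. Past 2-fold were 1 member (Yars), 2 at a pseudocount of 0.1 (Yars and Aars2), 0 in the read-based table, and 1 by TMM or DESeq2, which was Dars in place of Yars. The median share outside the protein_coding class was 36.2% for cytosolic members (33.6% to 40.1% with a replicate left out, 60.0% read-based, 41.8% at 5 TPM, 23.5% in counts) and 47.9% for mitochondrial members (48.9% to 49.7%, 63.0%, 42.4% and 32.7%). The counts-based shares were also added after seeing the data. The causes were not tested.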
